A study of Homo sapiens with 12 samples.

Results

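The 7 genes described here were chosen by name from 2 clusters of liver-secreted proteins. They are SERPINA1, SERPINA3, SERPINA6 and SERPINA10 from the serpin cluster on chromosome 14, and FGA, FGB and FGG from the fibrinogen locus on chromosome 4. They are 7 of 20007 protein-coding genes in the annotation. For the ChIP-seq peak lists, which are in hg19 coordinates, the members were the peaks inside a SERPINA window (chr14:94740000-95100000, 360 kb) and a fibrinogen window (chr4:155470000-155545000, 75.0 kb). These windows held 33 of 41082 siNC peaks and 54 of 45586 siHSF1 peaks.

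Huh7, a human hepatocellular carcinoma cell line, was used for all libraries. H3K27ac ChIP-seq was performed on cells transfected with control siRNA (siNC) or with siRNA against HSF1 (siHSF1) and collected 48 h later; which HSF1 siRNA was used for ChIP-seq is not given in the sources used here. CUT&Tag, in which a tethered transposase tags the chromatin around an antibody, was performed on untreated cells for HSF1 and for H3K27ac. Each condition had 1 library, so the differences below could not be compared with a spread between replicates, and no p-values are given. Intervals on the height differences of single regions cover counting error only. Intervals on shares treat neighbouring peaks as independent, which they need not be, and hold no spread between replicates either.

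Serpins of the A clade are mostly plasma proteins made by hepatocytes, and many of them trap proteases in an irreversible complex. SERPINA1 encodes alpha-1 antitrypsin, the main plasma inhibitor of neutrophil elastase, and SERPINA3 encodes alpha-1 antichymotrypsin. SERPINA6 encodes corticosteroid-binding globulin, a hormone carrier, and SERPINA10 encodes the protein Z-dependent protease inhibitor of coagulation. FGA, FGB and FGG encode the alpha, beta and gamma chains of fibrinogen, the precursor of fibrin clots. HNF1 and C/EBP factors are known regulators of many such liver genes, HSF1 is the master factor of the heat shock response, and H3K27ac marks active promoters and enhancers.

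In GENCODE on hg38 the fibrinogen genes lie in the order FGB, FGA, FGG. FGB (ENSG00000171564.12, chr4:154563011-154572807) is on the plus strand. FGA (ENSG00000171560.18, chr4:154583126-154590742) and FGG (ENSG00000171557.17, chr4:154604134-154612967) are on the minus strand. On chromosome 14 the order is SERPINA10 (ENSG00000140093.10, chr14:94280460-94293268), SERPINA6 (ENSG00000170099.6, chr14:94304248-94323389), SERPINA1 (ENSG00000197249.14, chr14:94376747-94390693) and SERPINA3 (ENSG00000196136.18, chr14:94612384-94624055). The first 3 are on the minus strand and SERPINA3 is on the plus strand, with its start 222 kb from that of SERPINA1.

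The 250 bp upstream of the FGA and FGB starts are shown because they hold the letters that recur across the genes. Sequences are from RefSeq on hg38, 5′ to 3′ on the gene's strand. Capitals mark matches on either strand to CCAAT and to the HNF1 site, which is GTTAAT, 2 free bases and TTAAC, allowing up to 2 mismatches among the 11 fixed bases. The FGA window is chr4:154590743-154590992 on the minus strand and the FGB window, upstream of its first RefSeq start, is chr4:154562730-154562979 on the plus strand.
FGA: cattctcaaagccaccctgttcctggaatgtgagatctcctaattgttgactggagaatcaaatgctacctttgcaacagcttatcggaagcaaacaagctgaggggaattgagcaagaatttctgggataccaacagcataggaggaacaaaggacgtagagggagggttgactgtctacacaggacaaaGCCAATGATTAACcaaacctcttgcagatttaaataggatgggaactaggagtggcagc
FGB: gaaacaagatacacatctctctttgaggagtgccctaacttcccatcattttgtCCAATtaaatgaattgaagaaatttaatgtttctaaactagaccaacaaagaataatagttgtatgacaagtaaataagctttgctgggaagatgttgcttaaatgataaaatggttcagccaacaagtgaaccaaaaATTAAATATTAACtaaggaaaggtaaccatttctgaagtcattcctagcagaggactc

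An HNF1 match was found upstream of 5 of the 7 genes, namely FGA, FGB, SERPINA1, SERPINA6 and SERPINA10. The 7 genes have 10 RefSeq promoter windows, as FGB, SERPINA1 and SERPINA10 have 2 each, and 6 of the 10 held a match. The 2 FGB windows overlap and hold the same match. Of all 35114 RefSeq promoter windows of this length, 3.70% held one. That share was not matched for base composition, and the GC content of the 10 windows ran from 32.0% (FGB) to 61.6% (SERPINA1). The matches are shown in capitals with 5 bases to each side, to compare their letters.
FGA: acaaaGCCAATGATTAACcaaac
FGB: caaaaATTAAATATTAACtaagg
SERPINA1: ccttgGTTAATATTCACCagcag
SERPINA10: aggatGTTAATCAGTAACcgtcc
SERPINA6: gccccTCTAACCATTAACcaccc

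The matches of FGB and SERPINA10 had 1 mismatch each, and those of FGA, SERPINA1 and SERPINA6 had 2. They lay from 59 to 47 bp upstream of the RefSeq start in FGA, 55 to 43 in SERPINA10, 65 to 53 in SERPINA6 and 76 to 64 in SERPINA1. In FGB the match lay 58 to 46 bp upstream of the first RefSeq start and 89 to 77 bp upstream of the second, which is also the GENCODE start. The SERPINA1 match belonged to the downstream of its 2 RefSeq starts, and the SERPINA10 match to the upstream of its 2. In FGA the CCAAT letters lay inside the HNF1 match. The exact half-site GTTAAT was found upstream of the same 5 genes, in 6 of their 10 windows with FGG and SERPINA3 included, and in 6.23% of all windows.

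The C/EBP, interleukin-6, STAT and CCAAT letters, searched without mismatches, were each found upstream of fewer of the genes than the HNF1 site. The C/EBP letters TTGCNNNAA were found upstream of FGB and SERPINA6 (7.81% of all windows), and TTGCNNAA upstream of FGA, FGB and SERPINA10 (9.05%). The interleukin-6 element CTGGGAA was found upstream of FGB and FGG (9.15%), and the STAT letters TTCNNNGAA upstream of FGA and SERPINA6 (6.57%). CCAAT was found upstream of FGA, FGB, FGG and SERPINA6, and in 32.0% of all windows. Of the 10 windows of the 7 genes, 3 held TTGCNNNAA, 4 TTGCNNAA, 3 CTGGGAA, 2 TTCNNNGAA and 5 CCAAT. The C/EBP forms can overlap each other, as they did in FGB, and a half-site lies in every exact HNF1 site.

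The heat shock element, searched as TTC, GAA and TTC with 2 free bases between them, was allowed 1 mismatch among its 9 fixed bases, and the search on both strands also covers its other phase. It was found upstream of SERPINA10 and SERPINA3, in 3 of the 10 windows of the 7 genes, and in 5.33% of all windows. The matches are shown because HSF1 is the factor profiled. The first SERPINA10 match lay 85 to 73 bp upstream of the upstream start, the second 217 to 205 bp upstream of the downstream start, and the SERPINA3 match ended at the base before the RefSeq start.
SERPINA10, first: TTCCAGAAACTCC
SERPINA10, second: TTGCTGAAGGTTC
SERPINA3: TTCATGAAAATCC
Each of the 3 had 1 mismatch. Neither gene had an HSF1 peak in its body or within 20 kb of it, as described next.

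HSF1 CUT&Tag peaks at the genes were counted within the gene bodies and 20 kb to either side. At the 7 genes there were 5 peaks of 7147 in the list, and 4 of the genes had at least 1, against 42.5% of protein-coding genes. Within 1 kb of the outermost GENCODE start, 3 of the 7 genes had a peak (FGA, FGG and SERPINA6), against 21.9% of protein-coding genes. At the fibrinogen locus 4 of the 5 peaks were found, and at the serpin genes 1.

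The FGA peak (chr4:154590660-154590960) had a pileup of 13 tags and a fold enrichment of 6.36 over the local background. Its summit lay 37 bp upstream of the FGA start, and the peak covered the HNF1 match shown above. It stood above 37.0% of the list by fold enrichment and 48.7% by pileup, so it was a peak of ordinary height. The FGG peak (chr4:154612654-154613015) had a pileup of 14 and a fold enrichment of 8.72, above 81.1% of the list. Its summit lay 150 bp downstream of the outermost FGG start, in sequence annotated as untranslated region of FGG. The RefSeq start used for the motifs lies further downstream, so the summit was inside the 250 bp window upstream of that start. An HNF1 match that extends beyond this window, and so was not counted above, and the letters CTGGGAA lay within 100 bp of the summit.

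A second peak near FGG lay in intergenic sequence 5.05 kb upstream of its start (chr4:154617887-154618176), with a pileup of 14 and a fold enrichment of 6.64. FGB had no peak at its start. The nearest one was 12.4 kb away (chr4:154550322-154550643), with a pileup of 22 and a fold enrichment of 9.83, the highest of the 5. Its summit was 66 bp from the start of PLRG1, which encodes a spliceosome component, so it was nearer to that gene than to FGB. It was also the 1 summit, of the 5, with a heat shock element match within 100 bp. The share of all HSF1 summits with such a match was not counted, so no conclusion is drawn from it.

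SERPINA6 had the weakest peak of the 5 (chr14:94323112-94323311). The pileup was 5 tags and the fold enrichment 4.92, and 5.15% of the list had a lower fold enrichment. The summit lay in an intron, 223 bp downstream of the outermost start. This peak was also the nearest to the other serpin genes, at 29.8 kb from the SERPINA10 start, 67.4 kb from that of SERPINA1 and 289 kb from that of SERPINA3.

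**Figure D1:**
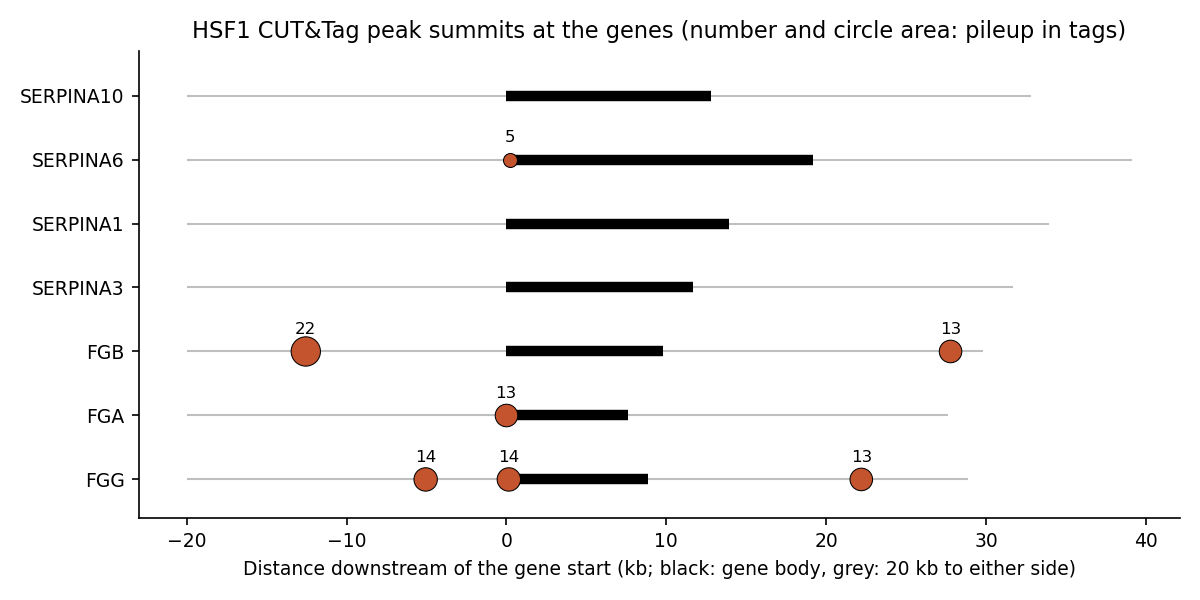
HSF1 CUT&Tag peak summits at the 7 genes in untreated Huh7 cells (1 library), by distance downstream of the outermost gene start in kb. Black bars are gene bodies, grey lines the 20 kb to either side, and circles the summits, with the pileup in tags above them. The summits at FGA and FGG lie at the start and that of SERPINA6 just inside it, the FGA peak is drawn again in the rows of FGB and FGG, and SERPINA1, SERPINA3 and SERPINA10 have none.

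Other genes of the pathways were read in the same way. None of the 6 other SERPINA genes of chromosome 14 had an HSF1 peak within 1 kb of the start. Of 22 genes of coagulation, fibrinolysis and their inhibitors, 6 had one, namely F2 (prothrombin), F5, F8, F10, PROS1 (protein S) and SERPING1 (C1 inhibitor). The PROS1 peak had a pileup of 17 and a fold enrichment of 8.57, close to the values at FGG. Of 17 acute phase genes, 2 had one, ORM1 with a fold enrichment of 6.59 and C3 with 5.49. The share of coagulation genes was 27.3% and that of acute phase genes 11.8%, beside the 21.9% of all protein-coding genes.

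The H3K27ac CUT&Tag list had no peak at any of the 7 genes. Within the gene bodies and 20 kb, 7.4% of protein-coding genes had one, and within 1 kb of the start 2.75%. The nearest peak was 491 kb from FGG and 2171 kb or more from the serpin genes. The list held 1299 peaks, and 5.70% of its tags were left after duplicate removal (896393 of 15737890), so an absent peak here is an absence at this depth. None of the 10 hepatocyte marker genes had a peak at the start in this list either, and 1 (HNF4A) had one within its body and 20 kb. In the HSF1 list 3 of 10 hepatocyte markers (APOA2, APOB and HNF4A), 0 of 5 blood and immune markers and 1 of 4 stromal and endothelial markers (COL1A1) had one. These counts give no clear check of the cell type.

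The H3K27ac ChIP-seq lists showed acetylation at both loci. Their depths were close, at 9795121 tags after duplicate removal for siNC and 10793650 for siHSF1. The fragment length that MACS estimated was not, at 297 bp for siNC and 175 bp for siHSF1. Each tag is extended to that length, so pileup, local background and peak length depend on it. The median peak was 575 bp long in siNC and 334 bp in siHSF1. The part of this in the differences below was not tested. No hg19 annotation was used, so ChIP-seq peaks are given by position and, other than at the SERPINA1 body, to no gene.

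The fibrinogen window was densely acetylated. The siNC list had 17 peaks there, covering 42.2 kb or 56.3% of the window, and the siHSF1 list had 33 peaks, covering 26.2 kb or 34.9%. The SERPINA window was sparser, with 16 siNC peaks over 15.7 kb (4.35%) and 21 siHSF1 peaks over 6.88 kb (1.91%). Over the whole lists the covered length was 42.0 Mb in siNC and 24.2 Mb in siHSF1, so less was covered in siHSF1 over the lists as a whole too.

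The highest and longest fibrinogen peak in siNC spanned 16.8 kb (chr4:155505511-155522314), 18th in the siNC list by length. Its pileup was 41 tags and its fold enrichment 18.1. In siHSF1 the same stretch held 11 separate peaks, 175 to 2424 bp long, which covered 64.5% of it. The highest of them had a pileup of 27 and a fold enrichment of 15.95. The first 2.20 kb of the stretch had no siHSF1 peak, and the widest gap between the pieces was 1398 bp. In each window 4 siNC peaks were met by 2 or more siHSF1 peaks, 4 of 17 here and 4 of 16 in the SERPINA window, against 19.6% of the siNC list. No siHSF1 peak of either window met 2 or more siNC peaks, against 3.07% of the siHSF1 list. Such breaking up was usual for long siNC peaks. The 18 siNC peaks at least this long held a median of 8 siHSF1 peaks, with a median cover of 83.0%, and this one had the lowest cover of the 18. Among the 114 siNC peaks of 10 kb or more, 16 had a cover as low or lower, this one included.

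By the highest peak of each list, no other shared fibrinogen region differed by 1.5-fold or more in fold enrichment. Where several siHSF1 peaks met 1 siNC peak, the highest of them was used, and it need not lie at the siNC summit. At chr4:155531327-155534818 the fold enrichment was 13.04 in siNC and 13.47 in siHSF1, in a single peak in each list. At chr4:155535513-155540118 it was 12.7 in siNC and 9.70 in siHSF1, where the siNC peak was met by 5 siHSF1 peaks. The 2 highest summits there lay 801 bp apart. The siHSF1 peak over the siNC summit (chr4:155538262-155538951) had a fold enrichment of 5.82, and its pileup was 16 against 36 in siNC. At chr4:155480645-155487678 it was 9.89 and 11.6. At chr4:155497487-155501266 it was 7.28 and 8.18, with the highest summits 1167 bp apart. The smallest shared region, chr4:155522882-155523392, had 5.17 and 4.60. So 3 of the 6 shared regions were lower in siHSF1 and 3 were higher, with log2 differences from -0.38 to 0.23.

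**Figure D2:**
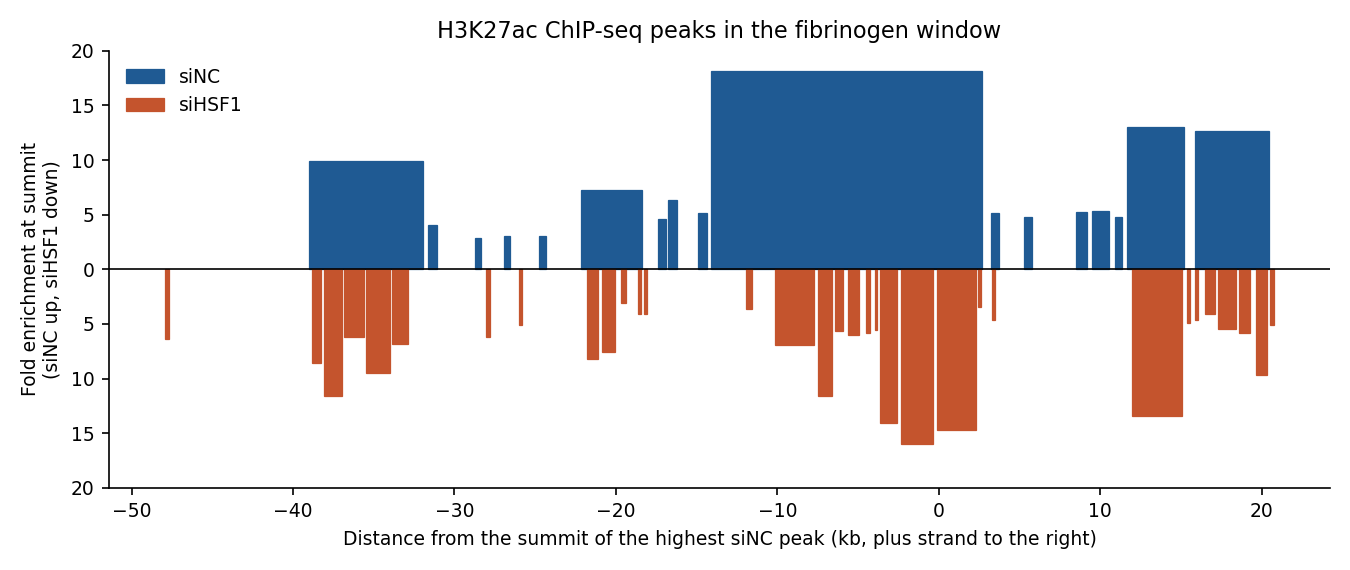
H3K27ac ChIP-seq peaks in the fibrinogen window, by distance in kb from the summit of the highest siNC peak. Each bar spans a peak and its height is the fold enrichment at the summit, siNC upward in blue and siHSF1 downward in orange, 1 library each. The 16.8 kb siNC peak at 0 stands over 11 siHSF1 pieces, and 11 smaller siNC peaks have no counterpart.

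Of the 17 siNC peaks in the fibrinogen window, 11 had no siHSF1 peak. In the siNC list as a whole 48.3% of peaks had none. The shared share was 35.3% in the window (exact 95% interval 14.2 to 61.7) and 51.7% in the list. The unshared peaks were small, with fold enrichments from 2.88 to 6.31 against 5.17 to 18.1 for the 6 shared ones. Most of them fell into 2 gaps of the siHSF1 list. One gap of 8.47 kb, from chr4:155523147 to chr4:155531616, held 4 siNC peaks with pileups of 10 to 13, the highest by fold enrichment being chr4:155529108-155530185 (5.34) and chr4:155528158-155528797 (5.22). The other, of 6.12 kb, from chr4:155501596 to chr4:155507714, held 3 with pileups of 11 to 18, among them the highest unshared siNC peak (chr4:155502876-155503454, fold enrichment 6.31). This second gap ran into the long siNC peak and includes its first part.

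In the other direction 27 of 33 siHSF1 peaks overlapped a siNC peak (81.8%, exact 95% interval 64.5 to 93.02), against 74.6% of the siHSF1 list, in which 25.4% had none. The 6 without one had fold enrichments from 4.05 to 6.42. The 3 highest were at chr4:155471682-155471933 (6.42), chr4:155491566-155491867 (6.22) and chr4:155493630-155493853 (5.12). The first of these lay 8711 bp from the nearest siNC peak, near the left edge of the window, and the other two lay 269 and 569 bp from small siNC peaks. Thus some unshared peaks of the 2 lists were near neighbours.

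To ask which clusters stood out as super-enhancer-like stretches, peaks within 12.5 kb were joined. Clusters were ranked by summit pileup above background per tag, times peak length, summed over their peaks. A long peak thus counts its summit height over its whole length. The fibrinogen peaks formed 1 cluster in each list. In siNC it spanned 59.5 kb and ranked 27 of 14420 clusters, at 5.403 times the cutoff where the slope of the ranked curve reaches 1. In siHSF1 it spanned 68.7 kb and ranked 37 of 13377, at 4.34 times the cutoff. The locus was above the cutoff in both. With 5 kb in place of 12.5 kb the siHSF1 cluster came apart into 4, of which 3 were above the cutoff. The highest of these ranked 133 at 2.21 times the cutoff, whereas the siNC cluster stayed whole and ranked 18 at 6.01 times. The nearness of the 2 ranks thus depended on the joining distance.

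In the SERPINA window no cluster was above the cutoff in either list, with 5 clusters in each. The highest siNC cluster was the one at SERPINA1 (chr14:94849519-94862912), which ranked 2061 at 0.369 of the cutoff. The highest siHSF1 cluster was chr14:94757248-94760121, 97.0 to 99.7 kb downstream of the SERPINA1 start by its summits, which ranked 3631 at 0.185 of the cutoff. Ranked by fold enrichment times length instead, the highest siHSF1 cluster was at SERPINA1 (chr14:94851009-94862946, rank 3451), as in siNC.

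At the SERPINA1 body (chr14:94843084-94857029, minus strand, so that its start is the higher coordinate) both lists had 5 peaks. The siNC peaks covered 5.14 kb, or 36.8% of the body, with fold enrichments from 5.29 to 7.70 and pileups of 10 to 15. The siHSF1 peaks covered 1.53 kb, or 11%, with fold enrichments from 3.43 to 6.47 and pileups of 7 to 10. Their median lengths were 1260 and 265 bp. All of their summits lay within 7.30 kb of the start, which is the outermost one. On hg38 SERPINA1 also has a RefSeq start inside the body, the one with the HNF1 match (chr14:94388602, against 94390693 for the outermost). The builds were not converted, so distances here do not tell peaks at that inner start from peaks elsewhere in the body.

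The highest siNC peak in the body was chr14:94853756-94855015, with its summit 2.37 kb downstream of the start. Its fold enrichment was 7.70 in siNC and 5.88 in siHSF1, and its pileup 15 and 9. The next region towards the start, chr14:94855170-94856545, had 5.78 in siNC and 6.47 in siHSF1. Further into the body, chr14:94852251-94853043 had 5.59 and 3.43, the lowest log2 difference of the window at -0.71. Its siHSF1 background was higher than in siNC, at 1.92 against 1.15 tags. The region chr14:94850833-94852145 had 5.29 and 5.30, and the siNC peak chr14:94849519-94849968 (5.29) had no siHSF1 peak. Upstream of the start, a siNC peak of 1610 bp (chr14:94858768-94860377, fold enrichment 5.78) had no siHSF1 peak either, and it was the highest of the 4 unshared siNC peaks in the window. The next highest besides that in the body was chr14:94760410-94760865, at 4.81.

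**Figure D3:**
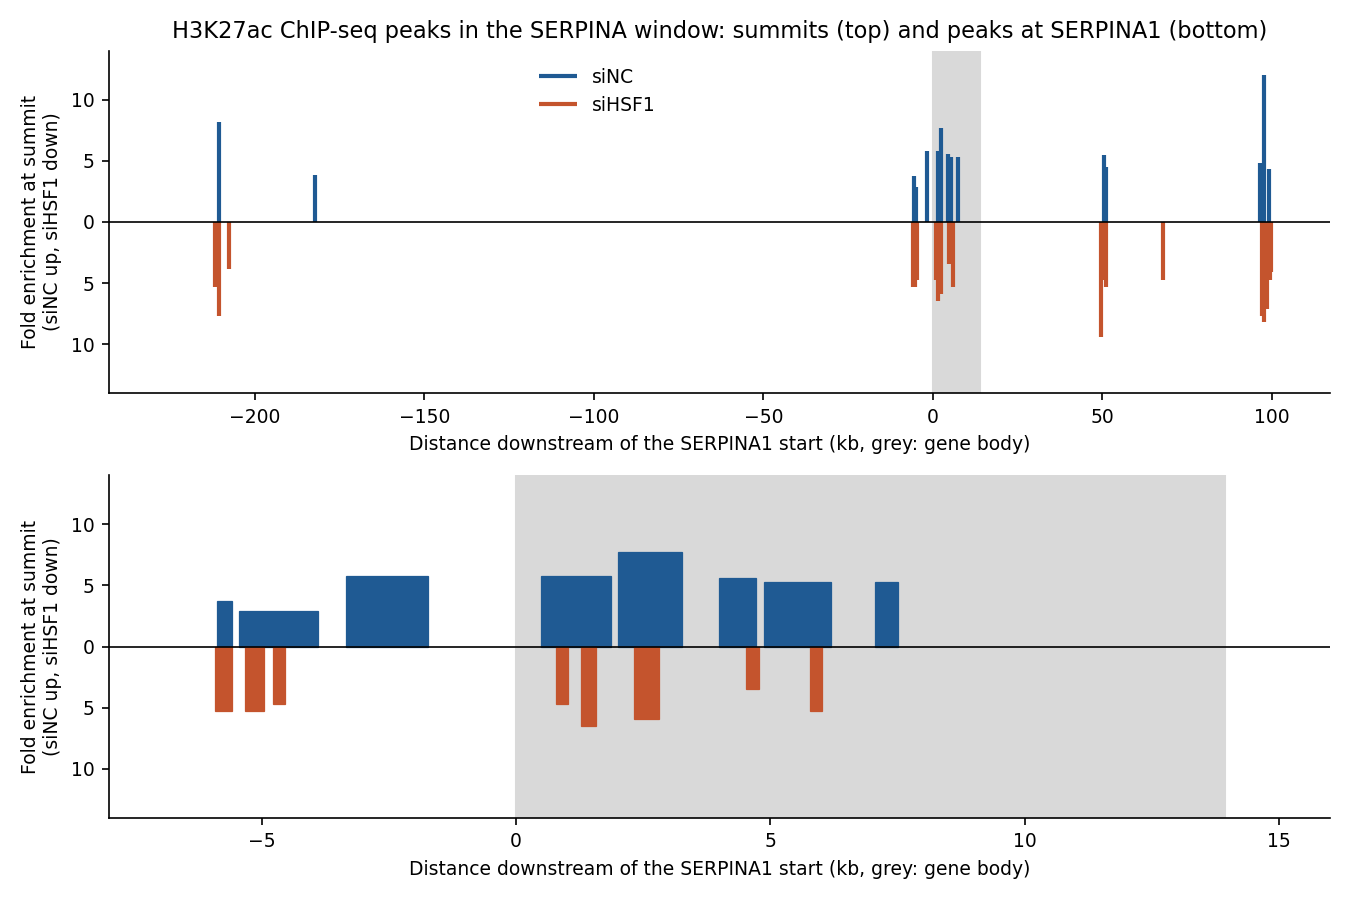
H3K27ac ChIP-seq peaks in the SERPINA window, by distance downstream of the SERPINA1 start in kb, with the gene body in grey. The upper panel shows each summit as a line and the lower panel each peak near SERPINA1 as a bar, with fold enrichment upward for siNC and downward for siHSF1, 1 library each. In the gene body there are 5 peaks in each list, and the siHSF1 peaks are narrower.

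Away from SERPINA1 the peaks of the window fell into a few small groups. The highest siNC peak lay in chr14:94758397-94759637, with a summit 97.7 kb downstream of the SERPINA1 start. Its fold enrichment was 12.03 in siNC and 8.17 in siHSF1, with pileups of 24 and 15. Its neighbour, chr14:94759763-94760209, went the other way, at 4.43 in siNC and 7.65 in siHSF1, with a pileup of 12 in both. The siNC background there was 1.93 tags and the siHSF1 background 0.70, the lowest value of that list in the window. The other tall region, chr14:95065038-95068623, was 211 kb upstream of the start by its siNC summit, at 8.18 and 7.65.

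The largest difference towards siHSF1 was at chr14:94860932-94862474, with a fold enrichment of 2.88 in siNC and 5.30 in siHSF1 (log2 difference 0.88). The pileup there was lower in siHSF1, at 8 against 13, and the background was 3.87 tags in siNC and 0.70 in siHSF1. A smaller one lay next to it at chr14:94862616-94862946, with 3.75 and 5.30, again with a lower pileup in siHSF1 (8 against 10). In these regions the direction therefore depended on the measure.

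Of the 16 siNC peaks in the SERPINA window, 12 had a siHSF1 peak (75.0%, exact 95% interval 47.6 to 92.7), against 51.7% of the siNC list. Of the 21 siHSF1 peaks, 16 had a siNC peak (76.2%, 52.8 to 91.8), a share close to the 74.6% of the siHSF1 list. The 5 siHSF1 peaks with none included the highest siHSF1 peak of the window, chr14:94807266-94807576, 49.6 kb downstream of the SERPINA1 start by its summit. It had a pileup of 15 and a fold enrichment of 9.41, above 99.8% of all siHSF1 peaks without a siNC peak. The nearest siNC peak ended 349 bp away, with a pileup of 15 and a fold enrichment of 5.46. The next highest were chr14:95068741-95068983 (5.30) and chr14:94789162-94789351 (4.71).

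Across the 12 shared SERPINA regions the fold enrichment was lower in siHSF1 in 5 and higher in 7, and over all shared regions of the lists 50.4% were lower. At 1.5-fold or more, 1 was lower and 2 were higher, against 10.3% and 11% of the 19826 shared regions of the lists. In the fibrinogen window none of the 6 passed 1.5-fold in either direction by the highest peak of each list. The median log2 difference was 0.060 in the SERPINA window and -0.062 in the fibrinogen window, beside -0.0051 over all shared regions. With the mean over the peaks of a region in place of the highest, the 2 window medians were -0.024 and -0.28. Over all shared regions the log2 difference by highest peak fell with the siNC height. Its median was 0.58 where the siNC fold enrichment was at most 4 and -0.33 where it was above 12. The siNC height is also the denominator of this difference, so noise in it alone gives such a fall. No conclusion is drawn from it.

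**Figure D4:**
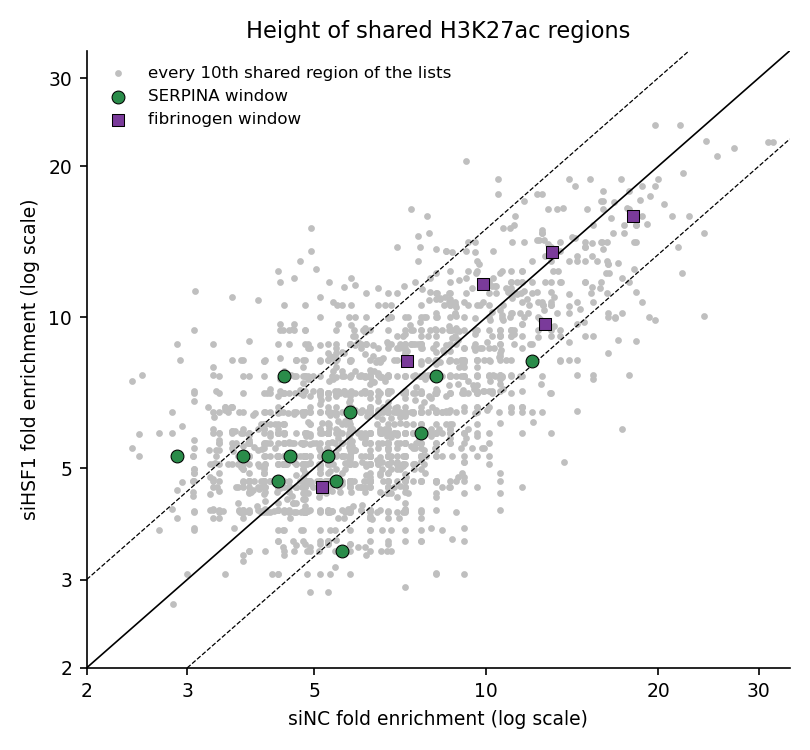
Highest fold enrichment of each shared region in siNC (x axis) and siHSF1 (y axis), both on log scales, 1 library each. Green circles are the 12 SERPINA regions, purple squares the 6 fibrinogen regions and grey points every 10th shared region of the lists, with equality as a solid line and 1.5-fold as dashed lines. All 6 fibrinogen regions lie between the dashed lines, and 3 SERPINA regions lie outside them.

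The sign of the median height difference depended on the scaling, over all shared regions of the lists as in these windows. As pileup per tag, all 12 SERPINA regions and all 6 fibrinogen regions were lower in siHSF1, with medians of -0.46 and -0.73 on the log2 scale. However, 90.7% of all shared regions were lower by this measure, with a median of -0.53. Dividing also by the fragment length, which adds the same amount to every region on the log2 scale, gave medians of 0.30 and 0.029, beside 0.24 over all shared regions. Pileup over local background gave 0.40 and 0.36, beside 0.29. The local background of the fibrinogen regions had a median of 1.88 tags in siNC and 0.91 in siHSF1, and over all shared regions 1.15 and 0.79. Over the SERPINA peaks the medians were 1.08 and 0.70, which recurred as the lowest values there. Part of the gap between the lists was thus not particular to single regions.

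The counting error of single regions was large. In the long fibrinogen peak the log2 difference per tag was -0.74 (95% interval -1.50 to -0.0070), and per tag and bp of fragment it was 0.020 (-0.74 to 0.76). At chr4:155535513-155540118, which had the lowest log2 difference of the fibrinogen regions by fold enrichment, these were -1.14 (-2.04 to -0.29) and -0.38 (-1.28 to 0.48). The highest SERPINA region gave -0.82 (-1.85 to 0.17) and -0.055 (-1.09 to 0.93).

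**Figure D5:**
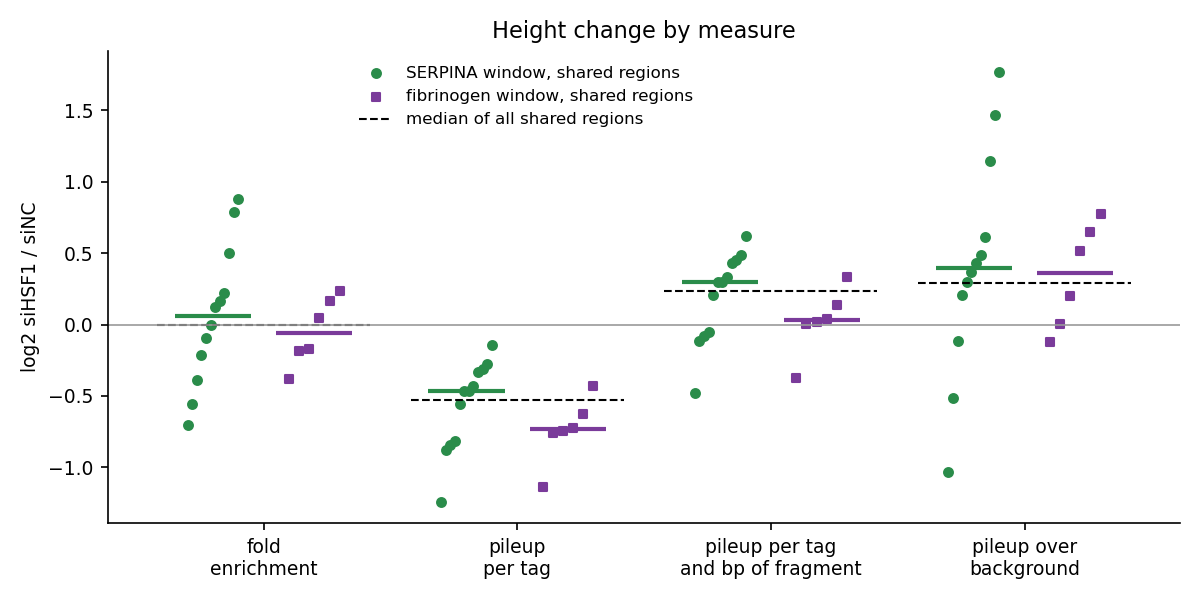
Log2 of siHSF1 over siNC in the shared regions by 4 measures of height (1 library each). Points are regions, green for the SERPINA window and purple for the fibrinogen window, bars are their medians, and dashed lines the median of all shared regions. By pileup per tag all points lie below 0, and by the other measures they lie on both sides of it.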

How the data were processed

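The deposited files were 4 peak lists that the authors made with MACS2, version 2.1.1.20160309 for ChIP-seq (q-value cutoff 0.05, with input as control) and 2.1.4 for CUT&Tag (p-value cutoff 1e-05, no control, tag ends extended to 200 bp). In each list the authors give the pileup at the summit as a signal in tags, the fold enrichment as a ratio of pileup plus 1 to local background plus 1, and p-values and q-values as −log10. The CUT&Tag headers state that q-values were not calculated, but the deposited column holds values. The ChIP-seq headers name BWA and hg19, whereas the study's methods name Bowtie2 and hg38. The CUT&Tag lists are in hg38, and builds were not converted or set side by side.

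Peaks on the main chromosomes were kept. Peaks of both ChIP-seq lists that overlapped by at least 1 bp were merged into regions, and a region's height was that of its highest peak. Local background was recovered from pileup and fold enrichment. Gene positions came from GENCODE release 44 and promoter sequences from RefSeq (all 7 genes matched). Clopper-Pearson intervals were used for shares and exact conditional intervals for pileup ratios. For medians, intervals were taken from the ranked values of the regions. With 1 library per condition no test was possible. RNA-seq and input libraries were not analysed here as separate files. Python 3.11.15, pandas 2.3.3 and scipy 1.17.1 were used. The scripts were tested on simulated data, where 15 of 15 checks over 6000 simulated regions were recovered. The members, lists and motifs were chosen with earlier results of these data known. The regions named were the 5 tallest shared regions of each window, the 3 largest differences in each direction, the 3 highest peaks of each list without a counterpart, and all peaks at the SERPINA1 body. CUT&Tag peaks were named at all 7 genes. Alternatives were stricter peak cutoffs, other overlaps, measures of height, folds, joining distances and flanks.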

Additional observations from a re-analysis of the deposited data

How the results depend on the processing

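Of 50 alternatives over 18 results, 35 left a count within 1.5 times the reported one, or a share or median within its 95% interval, and 15 moved it further. These intervals are wide, and the sign of the median differences did not hold. The SERPINA median of 0.060 became -0.32 by pileup, 0.30 per tag and bp of fragment, 0.40 over background and -0.24 with the q-value cutoff below, and the fibrinogen median of -0.062 became 0.029 per tag and bp and 0.046 with that cutoff. Requiring −log10 q of at least 5 left 9 siNC and 7 siHSF1 peaks in the SERPINA window, so that the siHSF1 list no longer had more, and 11 siNC peaks in the fibrinogen window. Requiring a fold enrichment of at least 5 left 9 and 12 in the SERPINA window and 10 siNC peaks in the fibrinogen window. The share of SERPINA siNC peaks with a siHSF1 peak was 31.3% when 50% of the peak had to be covered and 44.4% with the q-value cutoff. The SERPINA median difference was -0.46 per tag, and the fibrinogen median was -0.59 by pileup, -0.73 per tag and 0.36 over background. At 2-fold, 0 SERPINA regions were lower and 0 higher. Joining at 5 kb gave 3 siHSF1 fibrinogen clusters above the cutoff. The HSF1 count at the genes was 4 or 5 under every alternative run, and the H3K27ac CUT&Tag count stayed 0. No paired analysis was possible because there was 1 library per condition, and for the same reason no replicate could be left out. Pileups of 5 to 41 tags limit the precision of each height.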
